A study of Mus musculus with 6 samples.

Results

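The levels of 10 alpha and beta tubulin genes were compared between treated and control cultures of CT26.WT, an established colon carcinoma line of the mouse. The alpha tubulin genes were Tuba1a, Tuba1b, Tuba1c and Tuba4a, and the beta tubulin genes were Tubb2a, Tubb2b, Tubb3, Tubb4b, Tubb5 and Tubb6. They were chosen by gene symbol, had 1 row each, and make up 10 of the 25407 gene rows of the deposited table. The treated group consisted of 3 libraries from CT26.WT cells given Cu2O@AuMn@HA, NaHS and NIR together. The control group consisted of 3 libraries from CT26.WT cells that the labels describe only as control. Cu2O@AuMn@HA is named in the series title as a nanoplatform, NaHS is a donor of hydrogen sulfide, and NIR is near-infrared light. The labels state no dose, exposure time or harvest time, and no library received 1 of the 3 agents alone. All 6 libraries come from 1 established line, and the labels do not say whether the libraries of a group are separate cultures. The p-values therefore describe the spread among these libraries alone, and that spread could be technical.

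Alpha and beta tubulin are the subunits of microtubules. They fold in the cytosolic chaperonin, join as a heterodimer with the help of tubulin cofactors, and polymerise into the filaments that form the mitotic spindle, carry intracellular traffic and build cilia and axons. Mammals have several genes for each subunit, called isotypes, whose proteins differ mostly at the acidic C-terminal tail that faces the outside of the microtubule. Tuba1a and Tuba1b are known as general alpha tubulins, the first prominent in developing brain. Tubb5 is the main beta tubulin of most dividing cells, Tubb4b is widely expressed, and Tubb2a, Tubb2b and Tubb3 are best known from neurons. Cells also tune tubulin mRNA to the amount of free tubulin: in a process called autoregulation, TTC5 recognises the first residues of a nascent tubulin chain and brings in the CCR4-NOT deadenylase, which shortens the life of the mRNA.

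Tubulin mRNA was lower in treated than in control cells for most isotypes, and the alpha genes were lower by more, as a sum, than the beta genes. The main exception was Tubb5, whose values overlapped between the groups. On levels scaled to transcript length (FPKM), Tubb5 was the most abundant tubulin mRNA in treated cells and Tuba1b in control cells. On estimated counts Tubb5 stood above Tuba1b in every library of both groups. All 10 genes passed the filter on low counts, 8 were called lower at an adjusted p under 0.05 and 0 were called higher in edgeR's quasi-likelihood test, with Benjamini-Hochberg adjusted p-values over the whole table of 16212 tested rows. In the same test 23.5% of all rows were called lower and 23.0% higher. The median log2 fold change (treated over control) was -0.67 for the 10 genes and 0.058 for all rows tested. In TMM-scaled counts, for 9 of the 10 genes all 3 treated libraries lay below all 3 control libraries, against 28.4% of all rows that did not overlap in this direction. Estimated counts behind these values ran from 754 for Tubb2b to 250233 for Tubb5 in single treated libraries and from 1054 for Tubb2b to 301864 for Tubb5 in single control libraries.

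Totals were 62328377 to 70323604 estimated counts in treated libraries and 71409968 to 81821380 in control libraries, and 20621 to 21059 rows were above 0 in treated libraries, against 18681 to 18970 in control libraries. Levels are given in FPKM, a fragment count scaled by the authors to transcript length and library size, which allows levels of different genes to be compared. RNA came from whole cultures, so fewer cells of a type and less RNA per cell cannot be told apart. Of markers that define colon epithelium, Krt18 averaged 163 FPKM in treated and 65.4 FPKM in control cells and Krt20 averaged 57.5 FPKM in treated and 90.3 FPKM in control cells. Epcam, Cdh1 and Cldn7 were at most 0.0609 FPKM in treated libraries and at 0 in control libraries, while the mesenchymal marker Vim averaged 1295 FPKM in treated and 925 FPKM in control cells. Of the epithelial markers tested 3 of 6 were called higher and 1 lower, and of the mesenchymal markers 3 of 8 were called higher and 3 lower. The leukocyte marker Ptprc was at most 0.00292 FPKM in any library, Cd68 averaged 61.0 FPKM in treated and 27.7 FPKM in control cells, and no endothelial marker was above 0.0451 FPKM.

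**Figure D1:**
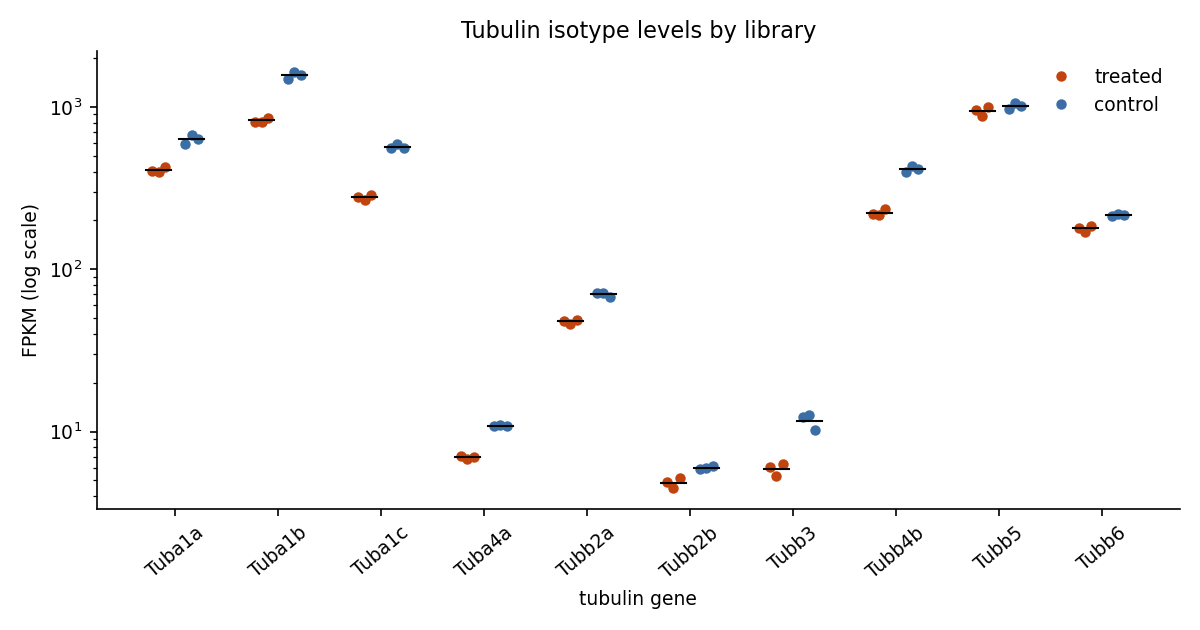
FPKM on a log scale for the 10 tubulin genes, with 1 point per library (treated left, control right of each gene) and a line at the group mean. The 3 treated points lie below the 3 control points for every gene except Tubb5, whose treated libraries span 886 to 1005 FPKM and whose control libraries span 972 to 1053 FPKM.

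Several of these genes are near copies of each other, which bears on how far reads could be assigned to 1 of them. In the GENCODE M21 transcripts, Tuba1a and Tuba1b had identical bases at 98.3% of aligned coding positions, Tuba1b and Tuba1c at 97.9%, Tuba1a and Tuba1c at 97.1%, and Tubb2a and Tubb2b at 96.5%. The next closest pair of the 10 genes, Tubb3 and Tubb6, stood at 85.9%. Reads were 150 bases long per the labels, and 54.7% of the 150-base windows of the Tuba1a transcript occurred unchanged in a transcript of another gene, as did 57.9% of those of Tuba1b and 46.7% of those of Tuba1c. The share was 27.9% for Tubb2a, 20.1% for Tubb2b and 16.8% for Tubb4b, all of the last with the pseudogene Tubb4b-ps1. It was 0 for Tuba4a, Tubb3, Tubb5 and Tubb6. Not all of the Tuba1 sharing was among the Tuba1 genes, and a window could occur in more than 1 gene. Of the Tuba1a windows, 16.9% occurred in Tuba1b, 26.8% in Tuba1c and 26.1% in Gm49450, a predicted gene overlapping Tuba1a and Tuba1b. Of the Tuba1b windows, 40.7% occurred in Tuba1c and 27.0% in Gm49450. Gm17383, which has no row in the deposited table, held 21.0% of the Tuba1a windows, 14.9% of those of Tuba1b and 11.5% of those of Tuba1c. Processed pseudogenes shared windows too, among them Gm3226 with 16.5% of those of Tuba1a and Gm14150 with 18.7% of those of Tuba1b. The split of reads among Tuba1a, Tuba1b and Tuba1c, and between Tubb2a and Tubb2b, is therefore uncertain, and each set was also tested as a sum.

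**Figure D2:**
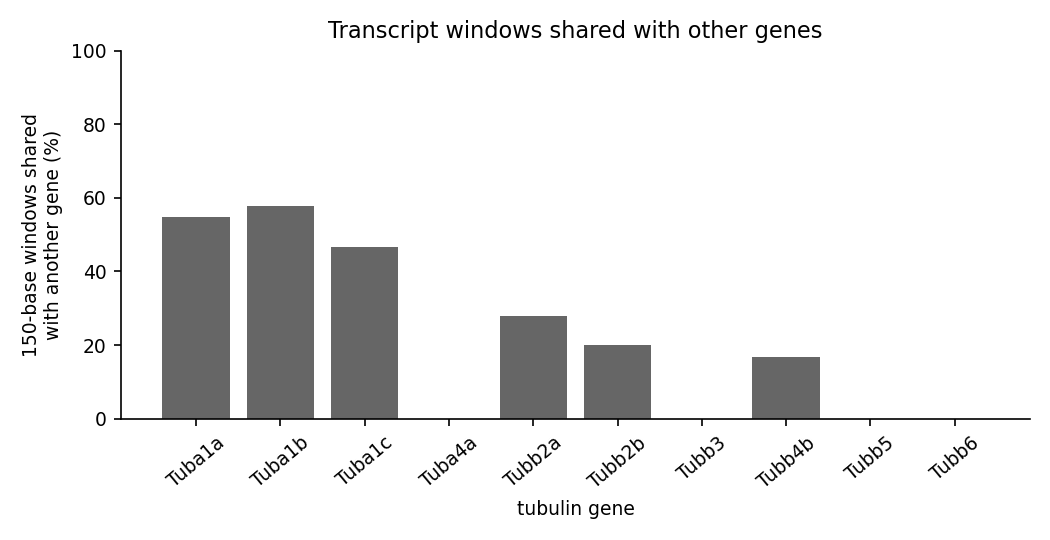
Share of the 150-base windows of each tubulin transcript (percent, GENCODE M21) that occur without a mismatch in a transcript of another gene. The 3 Tuba1 genes stand between 46.7% and 57.9%, and Tuba4a, Tubb3, Tubb5 and Tubb6 stand at 0.

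The last 60 coding bases encode the C-terminal tail and the stop codon, and are shown for 5 beta genes. The tail is the stretch in which isotype proteins differ most, but it does little to separate near copies. Tuba1a differed from Tuba1b at 1 of these 60 bases, and the tails of Tubb2a and Tubb2b are nearly the same. Capitals mark bases that differ from, or have no partner in, the aligned coding sequence of Tubb5 (GENCODE M21, 5′ to 3′). Tubb4b differed from Tubb5 at 17 of the 60 bases, Tubb2a at 16, Tubb2b at 19 and Tubb3 at 29. Each gene was aligned to Tubb5 alone, and the marks depend on where that alignment placed gaps. The same base can thus be marked in Tubb2a and not in Tubb2b, so these counts are approximate and do not rank the genes.
Tubb5: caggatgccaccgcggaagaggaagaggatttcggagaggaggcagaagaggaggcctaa
Tubb4b: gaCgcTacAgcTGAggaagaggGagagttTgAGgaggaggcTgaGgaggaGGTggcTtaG
Tubb2a: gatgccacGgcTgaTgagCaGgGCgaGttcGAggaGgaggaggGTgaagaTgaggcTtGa
Tubb2b: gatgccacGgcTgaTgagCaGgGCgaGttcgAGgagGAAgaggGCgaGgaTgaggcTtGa
Tubb3: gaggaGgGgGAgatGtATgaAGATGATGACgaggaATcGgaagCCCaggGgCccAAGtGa

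Among the alpha genes, all 4 were lower in treated cells, and Tuba1b and Tuba1c, of which Tuba1b was the most abundant, were lower by about as much as each other. Tuba1b (ENSMUSG00000023004, chromosome 15, 98829306 to 98832446 on the minus strand in the authors' file), the alpha tubulin of most cell types, had 809, 807 and 860.01 FPKM in treated libraries, against 1483, 1652 and 1584 FPKM in control libraries. The highest treated library stood well below the lowest control library. Its log2 fold change was -0.97 ± 0.08 (SE, edgeR adjusted p = 1.43e-05), a level 48.8% lower. By mean FPKM it ranked 88th of all rows in treated cells and 23rd in control cells.

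Tuba1c (ENSMUSG00000043091, chromosome 15, 98927772 to 98935991, plus strand), a near copy of Tuba1b, had 279.6, 267 and 289 FPKM in treated libraries, against 556, 590.3 and 555 FPKM in control libraries. The groups did not overlap, and each treated library held less than any control library by a wide margin. The log2 fold change of -1.06 ± 0.08 (SE, edgeR adjusted p = 7.43e-06) was the lowest of the 10, and 5.79% of all rows tested had a lower one.

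Tuba1a (ENSMUSG00000072235, chromosome 15, 98847718 to 98851584, minus strand), mutated in human brain malformations, had 406, 398 and 425 FPKM in treated libraries, against 594, 669.96 and 631 FPKM in control libraries. All treated libraries were again below all control libraries. Its log2 fold change of -0.66 ± 0.09 (SE, edgeR adjusted p = 0.000195) was smaller than that of its near copies, and its FPKM over that of Tuba1b was 0.501, 0.494 and 0.494 in treated libraries, against 0.401, 0.405 and 0.399 in control libraries. The ratio did not overlap between groups, at an exact 2-sided permutation p = 0.1 that is the smallest 3 against 3 libraries allow. Because these 2 transcripts share 150-base windows, a different split of shared reads between them in the 2 groups was not tested.

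Tuba4a (ENSMUSG00000026202, chromosome 1, 75190872 to 75196509, minus strand), the most divergent of these alpha isotypes in its coding bases, was the rarest alpha gene. It had 7.09, 6.81 and 6.96 FPKM in treated libraries, against 10.8, 10.9 and 10.8 FPKM in control libraries, with very little spread inside either group. The log2 fold change was -0.68 ± 0.08 (SE, edgeR adjusted p = 0.000118). In the authors' coordinates it overlaps Stk16, a kinase gene on the opposite strand, by 1379 bases, and Stk16 averaged 10.7 FPKM in treated and 21.7 FPKM in control cells (log2 fold change -1.06, edgeR adjusted p = 1.41e-05). Whether the counting used the strand is not given in the sources used here, so reads of the 2 genes in the overlap cannot be told apart.

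Summed into 1 row, Tuba1a, Tuba1b and Tuba1c had a log2 fold change of -0.92 ± 0.08 (SE, edgeR adjusted p = 1.44e-05). The sum was called lower in each of the 18 fits tried, with log2 fold changes of -0.98 to -0.71, so the call for the 3 genes together does not rest on how reads were divided among them. The predicted gene Gm49450 spans parts of both Tuba1a and Tuba1b on the same strand, by 3715 and 2429 bases. It had 71.5, 74.7 and 36.9 FPKM in treated libraries, against 219, 195 and 76.1 FPKM in control libraries, with the third library of each group apart from the other two. Its log2 fold change was -1.47 ± 0.36 (SE, edgeR adjusted p = 0.00772).

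Processed pseudogenes of alpha tubulin that share windows with the Tuba1 genes, 5 of them with a row, were lower too. Gm5620 had the lowest log2 fold change (-1.63, edgeR adjusted p = 5.31e-06), followed by Gm6682 (-1.19, edgeR adjusted p = 0.00274) and Gm3226 (-1.03, edgeR adjusted p = 4.72e-05). Gm3756 (-0.60, edgeR adjusted p = 0.00753) and Gm14150 (-0.44, edgeR adjusted p = 0.0042) were lower by less. They averaged 4.50 to 50.4 FPKM in treated cells and 10.1 to 66.5 FPKM in control cells. How many of these reads came from the Tuba1 genes was not tested.

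Among the beta genes the picture was mixed: Tubb4b and Tubb3 were about as much lower as Tuba1b, Tubb2a and Tubb6 were lower by less, and Tubb5 and Tubb2b were not called. Tubb4b (ENSMUSG00000036752, chromosome 2, 25112172 to 25114714, minus strand), a beta tubulin found in many tissues and in cilia, had 221, 216 and 234 FPKM in treated libraries, against 399.98, 436 and 413 FPKM in control libraries. No treated library came near the control range. The log2 fold change was -0.93 ± 0.09 (SE, edgeR adjusted p = 2.11e-05). Its pseudogene Tubb4b-ps1 averaged 8.32 FPKM in treated and 15.7 FPKM in control cells (log2 fold change -0.95, edgeR adjusted p = 0.000384).

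Tubb3 (ENSMUSG00000062380, chromosome 8, 124138163 to 124148754, plus strand), widely used as a marker of neurons and also expressed in many carcinomas, was rare in these cells. It had 6.03, 5.35 and 6.29 FPKM in treated libraries, against 12.2, 12.6 and 10.2 FPKM in control libraries. The groups did not overlap, and the third control library lay below its group. The log2 fold change was -1.02 ± 0.14 (SE, edgeR adjusted p = 0.000208). Of 10 neuronal markers 7 had a row, and the summed level of these was 45.2 to 57.2 FPKM in treated libraries and 45.5 to 56.2 FPKM in control libraries, nearly all of it from the neurofilament genes Nefl and Nefm. Of 4 tested, Nefm (-0.70, edgeR adjusted p = 7.79e-05) and Gap43 (-0.73, edgeR adjusted p = 0.0179) were lower and 0 were higher. With the GC correction 2 of the 4 were called lower and 1 higher, against 23.8% and 25.5% of all rows. The defining neuronal markers Rbfox3, Map2 and Elavl3 were at or near 0, none above 0.0506 FPKM in any library.

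Tubb2a (ENSMUSG00000058672, chromosome 13, 34258257 to 34261990, minus strand), the major beta tubulin of mature neurons, had 48.0, 46.3 and 48.8 FPKM in treated libraries, against 71.0, 71.4 and 67.5 FPKM in control libraries. The groups were clearly apart, and the log2 fold change was -0.59 ± 0.07 (SE, edgeR adjusted p = 0.000136). Its near copy Tubb2b (ENSMUSG00000045136, chromosome 13, 34310731 to 34314449, minus strand), linked in humans to cortical malformation, had 4.87, 4.50 and 5.17 FPKM in treated libraries, against 5.85, 5.98 and 6.11 FPKM in control libraries. All 3 treated libraries were below the control libraries, but the log2 fold change of -0.34 ± 0.13 missed the threshold (SE, edgeR adjusted p = 0.0515). It passed in 6 of 18 fits, among them the one without the third treated library (-0.41, edgeR adjusted p = 0.0334). Summed, Tubb2a and Tubb2b had a log2 fold change of -0.56 ± 0.07 (SE, edgeR adjusted p = 0.000204) and were called lower in all 18 fits. Tubb2b over Tubb2a was 0.102 ± 0.00434 in treated and 0.0856 ± 0.00436 in control libraries (FPKM ratio, SD, n = 3 each), with no overlap and an exact 2-sided permutation p = 0.1, the smallest possible.

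Tubb6 (ENSMUSG00000001473, chromosome 18, 67523787 to 67535819, plus strand), the most divergent of these beta genes from Tubb5 in its coding bases, with 80.3% of aligned bases identical, had 179.7, 169.8 and 186 FPKM in treated libraries, against 212, 219 and 215 FPKM in control libraries. The treated libraries were lower without overlap, by 19.1% in the fit. Its log2 fold change was -0.31 ± 0.08 (SE, edgeR adjusted p = 0.01). The call was lost when both libraries numbered 2 were left out (-0.23, edgeR adjusted p = 0.0683), and the fold change was -0.12 (edgeR adjusted p = 0.0481) after correction for transcript GC content.

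Tubb5 (ENSMUSG00000001525, chromosome 17, 36144813 to 36149198, minus strand), the beta tubulin of proliferating cells, had 957, 886 and 1005 FPKM in treated libraries, against 972, 1053 and 1015 FPKM in control libraries. Treated library 3 lay inside the control range, and the other treated libraries lay below it. The log2 fold change was -0.13 ± 0.08 (SE, edgeR adjusted p = 0.223), above that of 39.9% of all rows tested. Its sign turned with the GC correction (0.061, edgeR adjusted p = 0.217), and without the third treated library it was called lower (-0.20, edgeR adjusted p = 0.0395). Tubb5 shared no exact 150-base window with a GENCODE M21 transcript of another gene. Reads placed with mismatches, or on copies outside those transcripts, were not tested.

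**Figure D3:**
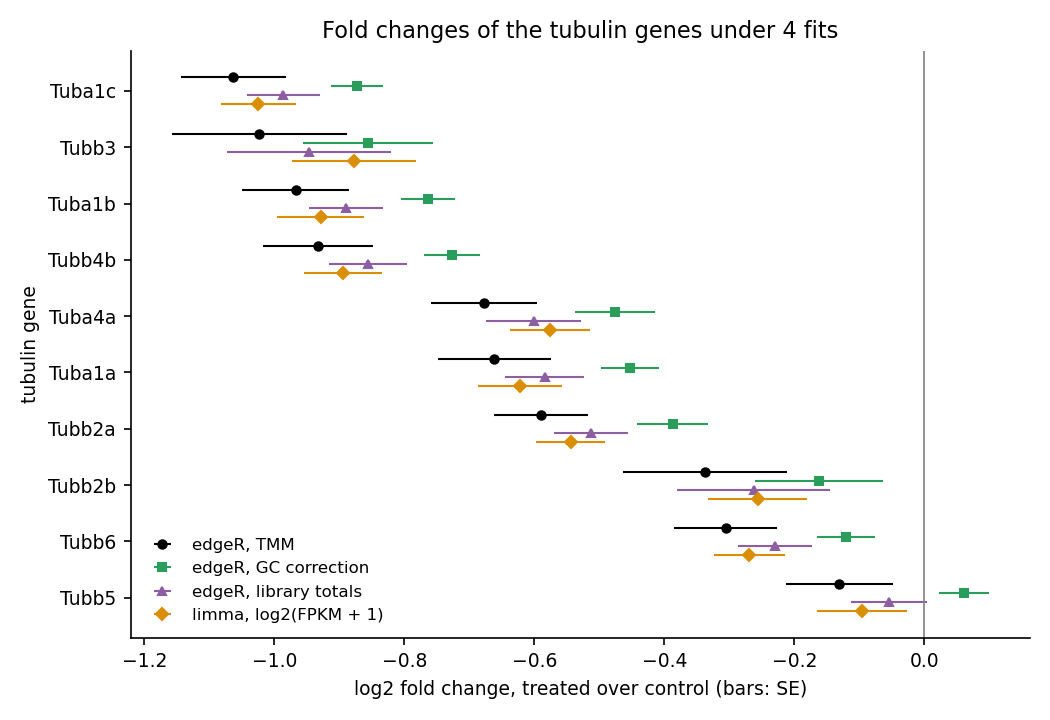
Log2 fold change (treated over control, bars are SE) of the 10 tubulin genes under 4 fits: edgeR with TMM scaling, with a GC correction, with library totals only, and limma on log2(FPKM + 1). Tuba1c, Tubb3, Tuba1b and Tubb4b stand farthest below 0 and Tubb5 stands nearest to 0, with a GC-corrected value of 0.061.

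The GC correction made every tubulin fold change less negative: the median of the 10 genes was -0.46 with it, against 0.062 for all rows. The 10 transcripts had 51.2% to 57.9% G and C, and the median transcript of the rows tested had 50.1%. With the correction 8 of the 10 genes were called lower and 0 higher, against 23.8% and 25.5% of all rows. The part of GC content in the fold changes was not tested.

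Because these genes moved by different amounts, the mix of tubulin mRNA differed between the groups. The 4 alpha genes summed to 1502, 1478 and 1581 FPKM in treated libraries, against 2644, 2924 and 2781 FPKM in control libraries. The 6 beta genes summed to 1416, 1327 and 1485 FPKM in treated libraries, against 1673, 1797 and 1727 FPKM in control libraries. Neither sum overlapped between the groups, and the treated mean was 0.546 of the control mean for alpha and 0.813 for beta. Alpha over beta was 1.08 ± 0.0295 in treated and 1.61 ± 0.0236 in control libraries (FPKM ratio, SD, n = 3 each). On this scale alpha and beta mRNA were near balance in treated cells and alpha was in excess in control cells. On estimated counts, which are not scaled to transcript length, alpha over beta was 0.710 in treated and 1.10 in control libraries. Which group was nearer to balance thus depended on the measure. The 10 genes took 0.769% ± 0.0366 of all estimated counts in treated libraries and 1.09% ± 0.0476 in control libraries (SD, n = 3 each). With Gm49450 added to the alpha sum, an alternative chosen after seeing the data, alpha over beta was 1.12 in treated and 1.70 in control libraries.

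Within the alpha sum, Tuba1b held the largest share, 54.3% ± 0.352 in treated and 56.5% ± 0.430 in control libraries. Tuba1a took 26.9% ± 0.0632 in treated and 22.7% ± 0.224 in control libraries, and Tuba1c took 18.3% ± 0.291 in treated and 20.4% ± 0.565 in control libraries (SD, n = 3 each). These shares carry the uncertainty of the near copies. Tuba4a stayed below 1% in every library, at 0.458% in treated and 0.391% in control libraries.

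Within the beta sum, Tubb5 took 67.3% ± 0.517 in treated and 58.5% ± 0.350 in control libraries, and Tubb4b took 15.9% ± 0.347 in treated and 24.02% ± 0.186 in control libraries (SD, n = 3 each). Tubb6 held 12.7% in treated and 12.4% in control libraries, within ranges that overlapped. Tubb5 over Tubb4b was 4.34, 4.10 and 4.29 in treated libraries, against 2.43, 2.42 and 2.46 in control libraries. Tubb5 over Tuba1b was 1.18, 1.10 and 1.17 in treated libraries, against 0.656, 0.637 and 0.641 in control libraries. Both ratios were higher in all 3 treated libraries than in any control library. Each had an exact 2-sided permutation p = 0.1, the smallest possible, before and after adjustment over the 4 ratios compared. The 4 ratios restate the fold changes of the same genes in the same libraries, so they are not separate support for them.

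**Figure D4:**
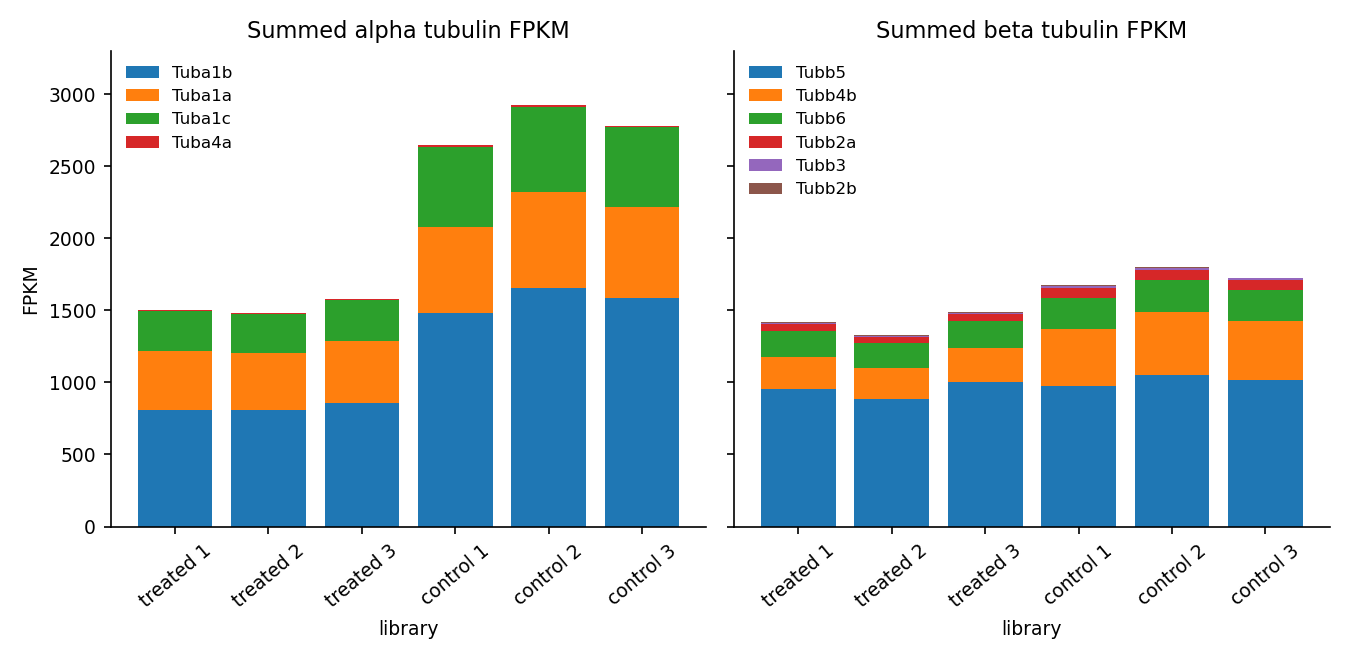
Summed FPKM of the alpha genes (left) and of the beta genes (right) in each library, stacked by gene, with the treated libraries left of the control libraries. The alpha stack is 1478 to 1581 FPKM in treated libraries and 2644 to 2924 FPKM in control libraries, and Tubb5 takes a larger part of the beta stack in treated libraries.

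Ordered by mean FPKM, the treated libraries gave Tubb5, Tuba1b, Tuba1a, Tuba1c, Tubb4b, Tubb6, Tubb2a, Tuba4a, Tubb3 and Tubb2b, and no neighbours in this order overlapped over the 3 libraries. The control libraries gave Tuba1b, Tubb5, Tuba1a, Tuba1c, Tubb4b, Tubb6, Tubb2a, Tubb3, Tuba4a and Tubb2b. Only Tubb3 and Tuba4a overlapped there, with Tubb3 above Tuba4a in 2 of 3 libraries. The order by FPKM thus differed at the top, between Tubb5 and Tuba1b, and near the bottom, between Tuba4a and Tubb3. On estimated counts, which are not scaled to transcript length, Tubb5 stood above Tuba1b and Tuba4a above Tubb3 in every library of both groups.

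The genes with the pattern most like Tuba1b and Tubb5, the alpha and the beta gene with the highest mean level, were sought among 4322 rows with a mean of at least 10 FPKM. Likeness was the root mean square difference of log2 FPKM over the 6 libraries after centring each gene on its mean. For Tuba1b the closest row was another tubulin, Tubb4b, at 0.0235, followed by Lgals9, a galectin, at 0.0298 and Ahcyl at 0.0307. For Tubb5 the closest were Atp5f1d, a subunit of mitochondrial ATP synthase, at 0.0101, the translation elongation factor Eef2 at 0.0103 and Prkaca, a catalytic subunit of protein kinase A, at 0.0149. Such rankings follow the difference between the groups as well as the spread inside them.

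The first coding bases of the tubulin genes are shown because autoregulation reads the start of the protein. Capitals mark the start codon and the next 3 codons (GENCODE M21, 5′ to 3′).
Tuba1b: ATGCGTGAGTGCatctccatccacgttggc
Tuba1a: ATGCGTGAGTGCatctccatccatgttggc
Tuba4a: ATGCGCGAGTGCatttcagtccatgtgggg
Tubb5: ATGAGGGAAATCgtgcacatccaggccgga
Tubb4b: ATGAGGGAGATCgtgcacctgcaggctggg
Tubb2a: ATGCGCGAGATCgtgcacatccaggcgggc
Tubb2b: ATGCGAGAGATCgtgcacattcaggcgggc
Tubb3: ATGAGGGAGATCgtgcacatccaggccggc
Over these 12 bases Tuba1a matched Tuba1b and Tuba4a differed from it at 1. Tubb3 and Tubb4b each differed from Tubb5 at 1 base, and Tubb2a and Tubb2b each at 3. The capitals encode Met-Arg-Glu-Cys in every alpha gene shown and Met-Arg-Glu-Ile in every beta gene shown, so no base difference changed a residue. The count of bases therefore cannot bear on recognition of the protein start, which was not tested.

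Of the 9 autoregulation genes listed, Ttc5 and Cnot7 were called higher, 4 were called lower and 3 were not called. Their median log2 fold change was -0.24. Of all rows tested 23.0% were called higher, near the share in this list, and 23.5% lower. With the GC correction 1 of the 9 was called higher and 4 lower. Ttc5, which recognises nascent tubulin, had 12.2, 12.1 and 12.3 FPKM in treated libraries, against 9.12, 8.78 and 8.25 FPKM in control libraries. The groups did not overlap, and the log2 fold change was 0.45 ± 0.08 (SE, edgeR adjusted p = 0.00137). Cnot7, a deadenylase subunit, was higher (0.87, edgeR adjusted p = 0.00161), but was 0.12 with the GC correction (edgeR adjusted p = 0.397). Cnot1, the scaffold of the complex, was lower (-0.88, edgeR adjusted p = 0.000507), as were the subunits Cnot3 (-0.66, edgeR adjusted p = 0.000535) and Cnot10 (-0.64, edgeR adjusted p = 0.000222). Cnot8 averaged 14.0 FPKM in treated and 14.2 FPKM in control cells and was not called.

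Promoters of 8 of the 10 genes were found in the RefSeq table (GRCm38.p6), and the 250 bases before the start were searched on both strands for 4 short motifs. CCAAT, the box bound by NF-Y, was present for 5 of the 8 (Tuba1a, Tuba1c, Tubb3, Tubb4b and Tubb5), against 33.8% of 32851 promoters. GGGCGG, the core of an Sp1 site, was present for 6 of the 8, against 32.7%. ACGTG, found in sites of hypoxia-inducible factors, was present for Tubb5 only, against 16.6%, and GAANNTTC, part of a heat shock element, for 0 of the 8, against 6.69%. A match is a description of these letters and does not show that a factor was bound. Tubb4b and Tubb5 are printed because they are the called and uncalled beta genes with more than 1 CCAAT, at chr2:25224703-25224952 and chr17:35838302-35838551, both on the minus strand of GRCm38.p6, with CCAAT in capitals.
Tubb4b: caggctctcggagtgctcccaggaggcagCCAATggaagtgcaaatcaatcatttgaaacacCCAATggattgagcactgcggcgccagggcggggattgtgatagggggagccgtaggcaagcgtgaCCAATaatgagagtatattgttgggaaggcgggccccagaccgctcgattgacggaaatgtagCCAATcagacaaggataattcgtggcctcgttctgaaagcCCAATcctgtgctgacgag
Tubb5: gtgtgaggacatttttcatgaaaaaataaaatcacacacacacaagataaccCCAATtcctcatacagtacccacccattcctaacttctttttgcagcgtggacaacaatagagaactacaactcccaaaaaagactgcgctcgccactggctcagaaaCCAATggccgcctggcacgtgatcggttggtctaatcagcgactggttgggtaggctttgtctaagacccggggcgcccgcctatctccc
Tubb4b, lower in treated cells, held 5 CCAAT matches, at 19 to 221 bases before the start, and Tubb5, not called, held 2, at 90 and 198 bases. The promoters of Tubb2b and Tubb6 are not shown.

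Other tubulin genes of the file were mostly rare. Tubg1, the gamma tubulin that seeds microtubules at the centrosome, had 31.1, 29.5 and 32.5 FPKM in treated libraries, against 54.3, 47.3 and 56.8 FPKM in control libraries. It was lower without overlap (log2 fold change -0.80 ± 0.08, SE, edgeR adjusted p = 4.72e-05). Tubd1, the delta tubulin of centrioles, was also lower (-0.84, edgeR adjusted p = 0.00333). The neural beta gene Tubb4a averaged 1.77 FPKM in treated and 1.54 FPKM in control cells (0.17, edgeR adjusted p = 0.492). Tuba3a, Tuba8 and Tubb1 were at or near 0 in all libraries and were not tested.

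The other tubulins, genes that act on tubulin or microtubules, and spindle and proliferation genes were grouped in 9 lists with 124 genes tested. Of these, 15 were called higher and 56 lower, against 23.0% and 23.5% of all rows. Spindle and proliferation genes had the lowest median, and chaperone genes were split. Of 7 tubulin cofactors, which assemble and take apart the heterodimer, 2 were higher and 4 lower, with a median log2 fold change of -0.23. Tbcd, which holds beta tubulin, averaged 3.95 FPKM in treated and 10.01 FPKM in control cells (-1.38, edgeR adjusted p = 3.9e-06), and Tbcc, which triggers release of the finished dimer, was lower as well (-0.67, edgeR adjusted p = 0.00114). Tbca, a beta tubulin partner, averaged 79.8 FPKM in treated and 55.0 FPKM in control cells (0.50, edgeR adjusted p = 0.000875), and Tbce, an alpha tubulin partner, was higher (0.71, edgeR adjusted p = 0.018). Arl2, the small GTPase of the cofactor complex, was lower (-0.25, edgeR adjusted p = 0.0236) but stood at -0.045 with the GC correction (edgeR adjusted p = 0.508).

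Of 14 genes for prefoldin and the CCT chaperonin, which fold tubulin, 5 were higher and 5 lower, with a median of 0.084. The prefoldin genes Vbp1 (1.38, edgeR adjusted p = 0.000394) and Pfdn1 (0.81, edgeR adjusted p = 3.37e-05) and the chaperonin gene Cct4 (0.66, edgeR adjusted p = 0.000733) were higher. Vbp1 averaged 15.7 FPKM in treated and 5.86 FPKM in control cells, and its log2 fold change was 0.40 with the GC correction. The chaperonin genes Cct3 (-0.72, edgeR adjusted p = 3.33e-05), Tcp1 (-0.47, edgeR adjusted p = 0.000872) and Cct5 (-0.38, edgeR adjusted p = 0.00208) were lower. Subunits of the same ring thus moved in both directions.

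Of 18 genes for enzymes that modify tubulin, 1 was higher and 5 were lower, with a median of -0.21. The ligase family genes Ttll4 (-1.14, edgeR adjusted p = 9.96e-05), Ttll12 (-0.69, edgeR adjusted p = 0.000186) and Ttll1 (-0.69, edgeR adjusted p = 0.00043) were lower. Ttll12 was the most abundant of them, with 41.4 FPKM in treated and 65.3 FPKM in control cells. Sirt2, a deacetylase that acts on alpha tubulin, was higher (0.24, edgeR adjusted p = 0.0289).

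Of 23 nucleation genes, the gamma tubulin ring complex, augmin and its anchors, 2 were higher and 11 lower, with a median of -0.38. Besides Tubg1, the anchor Pcnt (-0.95, edgeR adjusted p = 2.42e-05) and the ring complex subunit Tubgcp6 (-0.92, edgeR adjusted p = 2.85e-05) were lower. The augmin subunit Haus3 was higher (1.02, edgeR adjusted p = 0.00279), at 2.63, 3.73 and 2.099 FPKM in treated libraries, against 1.42, 1.15 and 1.48 FPKM in control libraries, but stood at 0.079 with the GC correction (edgeR adjusted p = 0.629). Mzt1, a small ring complex partner, was higher (0.45, edgeR adjusted p = 0.0382) and turned lower with the GC correction (-0.33, edgeR adjusted p = 0.0182).

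Of 25 microtubule-binding genes, 3 were higher and 12 lower, with a median of -0.30. Map4, the widely expressed stabiliser, had 11.995, 11.5 and 10.4 FPKM in treated libraries, against 17.7, 19.5 and 19.1 FPKM in control libraries (-0.77, edgeR adjusted p = 5.16e-05). Map1b (-1.21, edgeR adjusted p = 0.000139) and the plus-end binding gene Mapre2 (-0.57, edgeR adjusted p = 0.000148) were lower. Eml2 (0.98, edgeR adjusted p = 2.85e-05), Clip4 (1.49, edgeR adjusted p = 0.000141) and the plus-end binding gene Mapre3 (0.41, edgeR adjusted p = 0.00994) were higher. Map7d1, the most abundant uncalled gene of the list, averaged 69.3 FPKM in treated and 79.1 FPKM in control cells.

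Of 8 genes for stathmins and severing enzymes, 3 were lower and 0 higher, with a median of -0.18. Stmn1, which binds free tubulin dimers, had 29.3, 33.8 and 28.8 FPKM in treated libraries, against 79.5, 85.6 and 74.6 FPKM in control libraries. All treated libraries were far below the control range (-1.42 ± 0.09, SE, edgeR adjusted p = 3.51e-06). Katnal2, a gene of the katanin severing family, was lower too (-1.51, edgeR adjusted p = 0.000139).

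Of 16 spindle and proliferation genes, 11 were lower and 0 higher, with a median of -1.0003. Their summed level was 173 to 187 FPKM in treated libraries and 409 to 438 FPKM in control libraries. The mitotic kinases Plk1 (-1.75, edgeR adjusted p = 2.46e-06), Aurkb (-1.47, edgeR adjusted p = 2.17e-06) and Aurka (-1.46, edgeR adjusted p = 2.46e-06) were lower, and Top2a, which untangles chromosomes, was not called (-0.56, edgeR adjusted p = 0.0514). The other uncalled genes, named here after their values were seen, had positive log2 fold changes: Bub1 (0.62, edgeR adjusted p = 0.0569), Hmmr (0.55, edgeR adjusted p = 0.138), Nusap1 (0.47, edgeR adjusted p = 0.0764) and Kif11 (0.21, edgeR adjusted p = 0.582). The part of the 11 lower genes in the tubulin difference was not tested.

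**Figure D5:**
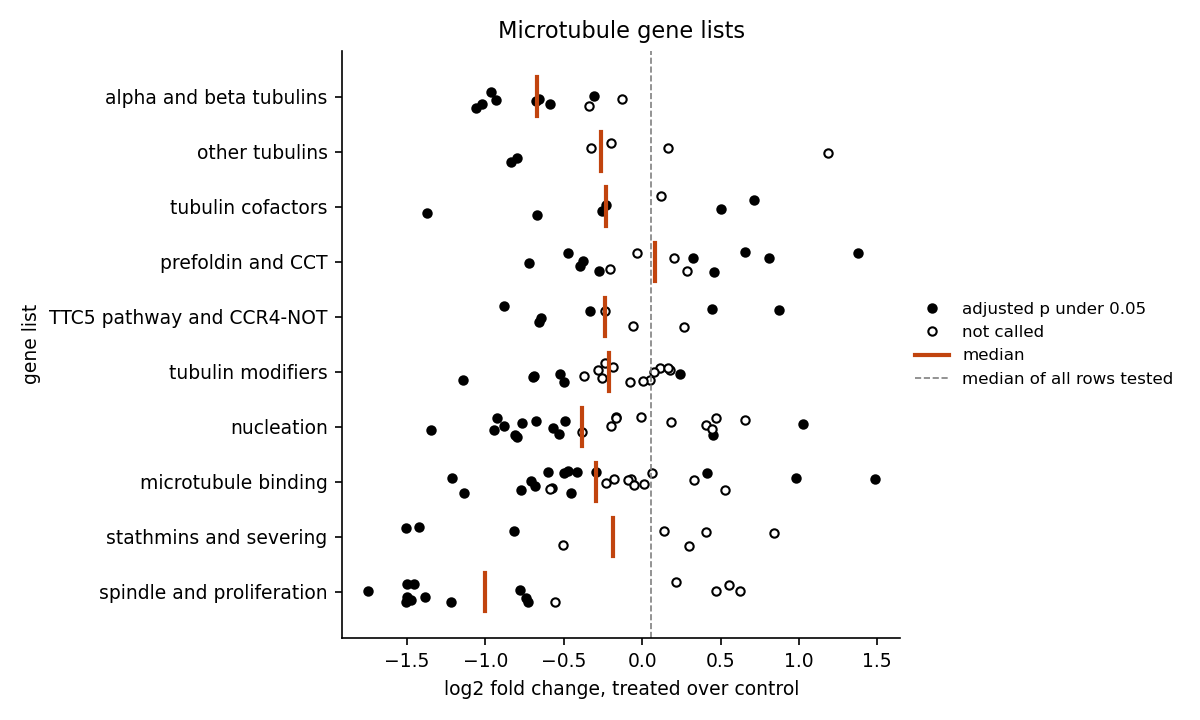
Log2 fold change (treated over control) of each tested gene by list, with the 10 alpha and beta tubulins at the top. Filled points had an edgeR adjusted p under 0.05, open points did not, the coloured bar is the list median and the dashed line is the median of all rows tested, 0.058. The medians of the tubulins (-0.67) and of the spindle and proliferation genes (-1.0003) lie farthest below the dashed line.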

How the data were processed

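The 6 RNA libraries, 3 treated and 3 control, were grouped by their titles. Per the labels' protocols, oligo-dT beads selected the mRNA, dUTP marked the second strand for removal, and read pairs of 150 bases were sequenced. The authors deposited, per the file headers, FPKM values and counts per gene in each library. The counts are taken as estimated counts, since the deposited whole numbers favour multiples of 4 (a count of 4 occurred 4054 times, of 3 2604 times and of 5 2475 times). The submitters' processing notes list edgeR, DESeq2, StringTie 2.1.6, HISAT2 2.2.1 and cutadapt 1.9 and give no roles. The genome build, annotation and strand setting of the counting were each not given in the sources used here. Of 23981 gene identifiers shared with GENCODE M21, 441 had the same start and end, so gene coordinates are those of the authors' file, and reference sequences were read only from GENCODE M21 transcripts or the RefSeq promoter table.

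Groups were compared with edgeR's quasi-likelihood test (edgeR 4.0.16, R 4.3.3) on the deposited estimated counts, 2-sided, with edgeR's default filter on low counts, TMM scaling and Benjamini-Hochberg adjustment over 16212 rows at a threshold of 0.05. The SE was taken from the fold change and the root of its F value. Group values are means ± SD of FPKM. Alternatives were DESeq2 1.42.0, limma 3.58.1 on log2(FPKM + 1) or log2(FPKM + 0.1) with mean FPKM filters of 1, 5 or none, library totals only, no count filter, counts divided by 4, a loess correction for transcript GC (span 0.4, 97.2% of tested rows matched to GENCODE M21), a replicate block, each library left out, and both libraries numbered 2 left out. Run on simulated counts with the same groups and library totals, edgeR found, among 15671 rows, 100% of the 2-fold and 100% of the 4-fold changes. It called 8 unchanged rows. These counts were drawn from control means with a fixed spread and no GC trend, and only well-expressed rows were changed. The simulation therefore does not show how well smaller changes, or changes in rare rows, are found in the real data.

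The tubulins and the gene lists were chosen with earlier results of these data known. All 10 tubulins are named. Of each other list, the text names up to 3 called genes in each direction, those of smallest p, and, for some lists, the most abundant gene that did not pass. A gene taken by this rule and some coding bases are not reported here. The totals above bound the counting error alone, and PCR copies were not separated. Depth alone does not set the precision. Tuba1b, with 102320 estimated counts in treated library 1, and Tuba4a, with 1773, both had an SE of 0.08.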

Additional observations from a re-analysis of the deposited data

How the results depend on the processing

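Over 18 fits, 7 to 10 of the 10 tubulins were called lower (8 in 11 fits, 9 in 5, 10 without the third treated library, 7 without both libraries numbered 2) and 0 were called higher in any. Tubb2b passed in DESeq2 (-0.34, adjusted p = 0.0474), in limma on log2(FPKM + 0.1) (-0.30, adjusted p = 0.017), in limma on log2(FPKM + 1) with a mean FPKM of at least 1 (-0.26, adjusted p = 0.0177), at least 5 (-0.26, adjusted p = 0.0162) or above 0 (-0.26, adjusted p = 0.0251), and in edgeR without the third treated library (-0.41, adjusted p = 0.0334). Tubb6 was lost without both libraries numbered 2 (-0.23, edgeR adjusted p = 0.0683), and Tubb5 was gained without the third treated library (-0.20, edgeR adjusted p = 0.0395). Limma with a mean FPKM of at least 5 tested fewer rows, 6168, and called 1835 higher (29.8%) and 2528 lower (41.0%). The main fit called 3735 higher (23.0%) and 3813 lower (23.5%). Over the 18 fits, 13.7% to 29.8% of all rows tested were called higher and 13.1% to 41.0% lower. On counts in place of FPKM, the treated over control ratio was 0.870 for the beta sum and 0.643 for alpha over beta. Mzt1 reversed to -0.33 with the GC correction. Causes of these differences were not tested.

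Leaving out 1 library at a time gave 2832 to 3572 rows higher, 3241 to 3720 lower, 8 to 10 tubulins lower and 0 higher, and 11 to 19 list genes higher and 50 to 57 lower. Log2 fold changes ranged from -0.74 to -0.61 for Tuba1a, -1.04 to -0.92 for Tuba1b, -1.11 to -1.03 for Tuba1c, -0.71 to -0.67 for Tuba4a, -0.64 to -0.57 for Tubb2a, -0.41 to -0.29 for Tubb2b, -1.14 to -0.96 for Tubb3, -0.99 to -0.89 for Tubb4b, -0.20 to -0.091 for Tubb5 and -0.36 to -0.28 for Tubb6. They ranged from -0.98 to -0.87 for the Tuba1 sum and -0.60 to -0.54 for the Tubb2 sum, and ratios from 0.533 to 0.561 for alpha, 0.792 to 0.837 for beta and 0.662 to 0.678 for alpha over beta.

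The labels do not say whether the numbers in the titles pair the libraries. Deviations from the group means correlated at 0.040, -0.10 and 0.0065 for same-numbered libraries, and at -0.090 to 0.081 for the others. No trend shared by number was seen in these values, but they cannot tell whether the libraries were paired. With the replicate block, 3070 rows were called higher and 3205 lower, and 8 tubulins were called lower, Tubb6 at -0.31 (edgeR adjusted p = 0.0459). Of 1071 values for 65 single list genes, 1009 kept direction and side of the threshold, 44 lost and 17 gained the call and 1 reversed. Of 476 list counts, 54 moved by over 1.5 times. The number of libraries limits all p-values, and at this depth the rarest tubulins, Tubb2b and Tubb3, rest on the fewest reads.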
